A study of Homo sapiens with 6 samples.

Results

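FGFBP1, the 4 signalling FGF receptors FGFR1, FGFR2, FGFR3 and FGFR4, and the ligands FGF2 and FGF19 were followed across the 3 siRNA groups of AsPC-1, an established human line from a pancreatic adenocarcinoma. These 7 genes of the 20263 in the count table were taken by symbol. FGFBP1 had been picked because its level was lower with both siRNAs against HMOX1, so its values against control are given as a description with no test, and the other 6 were picked by family name with earlier results of these data known. All 7 were expressed, in the sense that they passed edgeR's expression filter together with 13769 genes in all. The study asks how HMOX1, which encodes the heme-degrading enzyme heme oxygenase-1, bears on the growth of these cells. The groups were siControl (a negative control siRNA), HMOX1si1 and HMOX1si2 (a different siRNA against HMOX1 each), with 2 libraries per group. All cells were unmodified AsPC-1 that received an siRNA with jetPRIME, and the time from transfection to harvest is not given in the sources used here. One cell line was used, and the labels do not say whether replicates came from separate cultures, so p-values reflect the spread among these 6 libraries alone, which may be technical.

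Fibroblast growth factors are secreted signals that bind receptor tyrosine kinases together with heparan sulfate, a sulfated sugar chain on cell surfaces and in the matrix. FGF2 is held in the matrix by heparan sulfate, and FGFBP1 is a secreted carrier that binds such ligands, releases them and brings them to their receptors. FGF19 belongs to the hormone-like FGFs, which bind heparan sulfate weakly and need a Klotho protein as co-receptor, mainly beta-Klotho (KLB) with FGFR4. Active receptors signal through the adaptor FRS2 to RAS and ERK, and Sprouty, SPRED and SEF proteins damp the signal.

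Total counts lay between 36.1 and 45.1 M per library, and between 14999 and 15220 genes had a count above 0. HMOX1 had 9.06 and 8.52 CPM (the count relative to the TMM-scaled library total) in the control libraries, 2.43 and 2.80 with HMOX1si1 and 1.27 and 1.17 with HMOX1si2. It was thus lowest with HMOX1si2, whereas FGFBP1 was lowest with HMOX1si1. All 8 ductal epithelial markers (KRT7, KRT8, KRT18, KRT19, EPCAM, CDH1, MUC1 and CEACAM6) passed the filter, and their summed level was 14000 to 15800 CPM in siControl, 10400 to 10500 with HMOX1si1 and 14200 to 14300 with HMOX1si2. Of 6 fibroblast markers 4 passed, with sums of 119 to 125, 91.2 to 95.4 and 79.0 to 87.0 CPM. Of 6 blood markers 3 passed, with sums of 48.7 to 63.5, 44.2 to 45.7 and 32.5 to 36.9 CPM, and CD3E and HBB were at 0 in all libraries. The acinar and endocrine lists summed to at most 0.586 and 0.100 CPM, and endothelial markers to at most 1.71 (CPA1, INS and SST were at 0 in all libraries). All libraries came from the same cell line, so these sums are transcript levels and not numbers of cells of other types. In bulk RNA of the line, fewer cells with a transcript cannot be told apart from less of it per cell. The part of these shifts in the results that follow was not tested.

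The upstream sequence of FGFBP1 is shown because its transcript had the widest change of the members, beside that of FGF2, the ligand with a lower level under HMOX1si2. Each run is the 250 bases before the RefSeq transcript start, read 5′ to 3′ on the gene's strand (RefSeq, GRCh38.p14), at chr4:15938741-15938990 on the minus strand for FGFBP1 and chr4:122826581-122826830 on the plus strand for FGF2. Capitals mark matches to TTNNGNAA, a simplified C/EBP word, in FGFBP1 and to GGGCGG, the GC box, in FGF2, on either strand.
FGFBP1: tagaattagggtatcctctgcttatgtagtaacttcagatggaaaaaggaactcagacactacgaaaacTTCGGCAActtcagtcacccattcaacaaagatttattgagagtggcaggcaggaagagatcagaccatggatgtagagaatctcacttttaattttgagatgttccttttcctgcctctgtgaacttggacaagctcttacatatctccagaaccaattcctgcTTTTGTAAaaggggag
FGF2: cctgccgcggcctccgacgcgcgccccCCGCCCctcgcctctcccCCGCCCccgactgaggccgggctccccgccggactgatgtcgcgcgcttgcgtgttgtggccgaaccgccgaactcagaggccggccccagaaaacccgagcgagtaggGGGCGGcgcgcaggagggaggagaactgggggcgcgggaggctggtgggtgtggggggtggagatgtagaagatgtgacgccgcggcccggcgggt

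G and C made up 40.8% of the FGFBP1 window, against a median of 58.0% over 35116 such windows and 75.2% for FGF2. FGFR3 had 1 window at 86.8%, FGFR4 had 2 at 79.6% and 57.2%, and FGFR2 had 5 between 42.8% and 78.4%. FGFBP1 held 2 matches to TTNNGNAA, which start 181 and 16 bases before the transcript start, and 33.2% of all windows hold at least 1. It held no GGGCGG, a word found in 42.6% of windows, whereas FGF2 held 3, FGFR3 8 and the window of FGFR4 at 79.6% 7. TGANTCA, the AP-1 word, was in none of the windows of the 5 members that have one (FGFBP1, FGFR2, FGFR3, FGFR4 and FGF2) and in 6.57% of all windows. The words were searched on both strands and do not overlap in these windows, and a match is a description of letters only.

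FGF19 was by far the most abundant member and the FGFR2 and FGFR3 transcripts the scarcest. Levels can be set side by side between genes only per length, here as CPM per kilobase of the union of annotated exons (GENCODE 29). In siControl the means were 274.5 CPM per kilobase for FGF19 (SD 13.1, n = 2), 29.8 for FGFBP1 (SD 2.13), 4.83 for FGFR1 (SD 0.663), 2.87 for FGF2 (SD 0.478), 2.48 for FGFR4 (SD 0.290), 0.850 for FGFR3 (SD 0.146) and 0.598 for FGFR2 (SD 0.114). FGF2 and FGFR4 overlapped in this order and did not differ beyond their spread, and the other neighbours did not overlap. With HMOX1si1 FGFBP1 (6.78, SD 0.380) stood within the spread of FGFR1 (7.63, SD 1.44), and FGFR4 (3.59, SD 0.197) stood above FGF2 (2.43, SD 0.0863). With HMOX1si2 FGFBP1 was again second, at 11.9 CPM per kilobase (SD 0.271). Among 20224 genes ranked by this level in each library, FGF19 held ranks 59 to 139 over the 6 libraries, FGFBP1 1433 to 5880 and FGFR2 10873 to 11651. The length used depends on the annotated isoforms, so these ratios between genes are approximate.

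**Figure D1:**
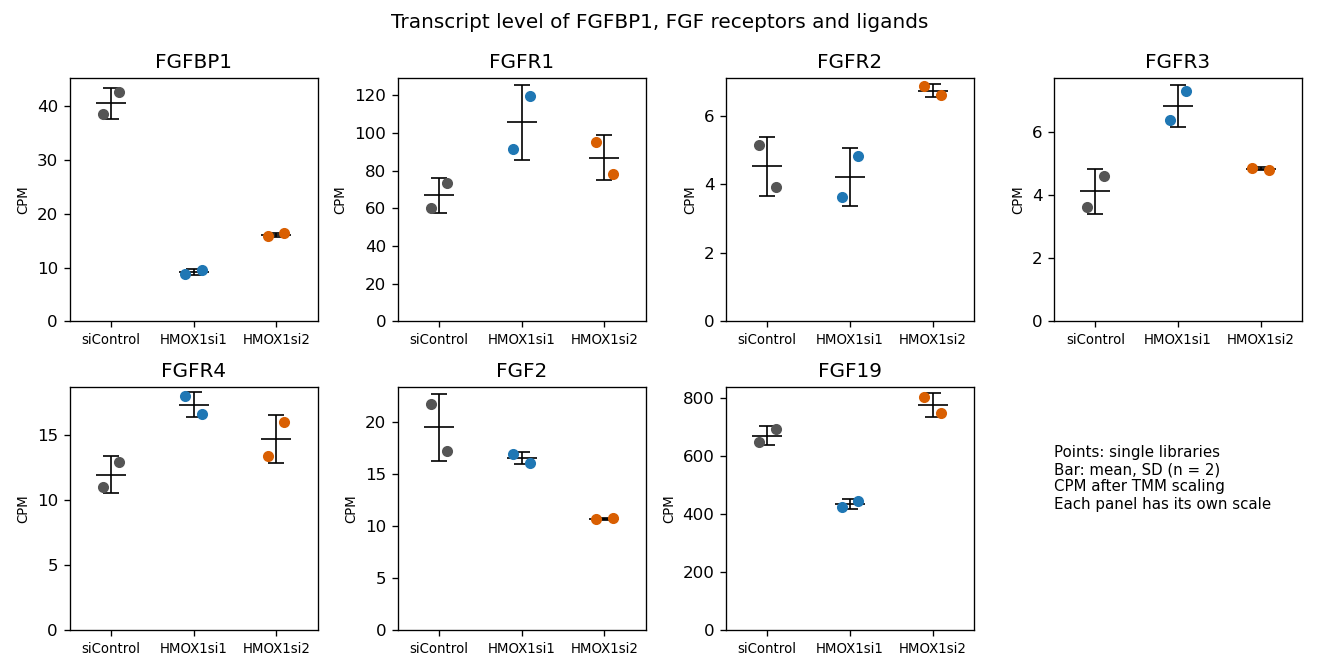
Transcript level in CPM (count relative to the TMM-scaled library total; y axis, from 0, its own scale in each panel) of the 7 genes in the 3 siRNA groups; points are single libraries and bars show mean and SD (n = 2). FGFBP1 is lower in all 4 knockdown libraries (8.85 to 16.4 CPM) than in both controls (38.5 and 42.6), whereas FGF19 is low with HMOX1si1 only.

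FGFBP1 (ENSG00000137440, chromosome 4, 15935569 to 15938740, minus strand, GRCh38 as annotated by GENCODE 29) had a lower transcript level with either siRNA, and the lowest with HMOX1si1. Its counts were 1394 and 1891 in siControl, 371 and 383 with HMOX1si1 and 689 and 742 with HMOX1si2. In CPM these were 38.5 and 42.6, then 8.85 and 9.58, then 15.9 and 16.4. The 3 groups did not overlap, and the control libraries were the highest. All knockdown libraries lay below both controls for 18.2% of all tested genes. The fit put FGFBP1 at 22.7% of control with HMOX1si1 (a change of −2.14 on the log2 scale, SE 0.12) and at 39.8% with HMOX1si2 (−1.33, SE 0.11). These lower levels are what the gene was chosen for, and the share of all tested genes called lower is 5.01% and 2.67% in these comparisons.

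What the choice of FGFBP1 did not use is the difference between the siRNAs. FGFBP1 was 1.75-fold higher with HMOX1si2 than with HMOX1si1 (log2 difference 0.81, SE 0.11, edgeR adjusted p = 0.0229), in 2 of 2 libraries against both of the other. Of the 7 members, 2 were called in this comparison, both higher, against 3.62% of all genes (2.14% higher, 1.49% lower). By libraries alone 3 of 7 lay higher and 3 lower, against 25.3% and 26.0% of all genes. The edgeR adjusted p lay between 0.0596 and 0.1386 when any 1 of the 6 libraries was left out, so each of the 6 ended the call while the difference stayed between 0.76 and 0.87. The other binding proteins had low counts. FGFBP2, a paralogue next to FGFBP1 on the chromosome, had 0 counts in 5 libraries and 4 in the other, and did not pass the filter. FGFBP3 passed it, with 27 to 57 counts per library (0.66 on average on the log2 scale, SE 0.26, edgeR adjusted p = 0.144). All knockdown libraries of FGFBP3 lay above both controls, as did those of 18.7% of all tested genes.

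The genes around FGFBP1 were mostly off. CD38, 82.3 kb away on one side, had a count above 0 in a single library, and PROM1, beyond FGFBP2 on the other side, was at 0 in all 6, which allows at most 0.0663 to 0.0829 CPM per library (a limit of 3 counts, for counting error only). This limit takes counts as independent events, and it would be higher if reads of a pair were counted apart, which is not settled. BST1, 197.0 kb away, was the only neighbour that could be tested, at 4.28 and 4.01 CPM in siControl, 3.58 and 2.93 with HMOX1si1 and 5.23 and 5.17 with HMOX1si2. The 3 groups did not overlap, and HMOX1si1 was the lowest, as for FGFBP1, but HMOX1si2 lay above the controls. Of all tested genes, 31.9% lay below both controls with HMOX1si1 and 28.9% above them with HMOX1si2. None of the BST1 values passed: −0.35 with HMOX1si1 (edgeR adjusted p = 0.208), 0.33 with HMOX1si2 (0.258), −0.01 on average (0.965) and 0.68 between the siRNAs (0.0847).

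Across all 6 libraries, the pattern most like that of FGFBP1 was that of ALPG, a germ-cell alkaline phosphatase. Likeness was measured as the root mean square difference of log2 CPM, each gene set to its own control mean, over 6 libraries and 10837 genes whose log2 CPM averaged 2 or more. ALPG differed from FGFBP1 by 0.188 on this scale, followed by RASL11A, a RAS-like GTPase (0.263), SLC2A6, a sugar transporter (0.320), FBXO2, an F-box protein (0.345), ZC3H10 (0.358), ANXA13, an annexin (0.380), ENSG00000284292 (0.405) and GLTPD2 (0.407). RASL11A went from 31.4 and 32.4 CPM to 9.47 and 9.30 with HMOX1si1 and 14.2 and 15.9 with HMOX1si2. FBXO2 went from 8.57 and 9.28 to 1.91 and 2.23 and then 4.84 and 5.84, which is also lowest with HMOX1si1. These genes were picked for their likeness, so their values are no test. FBXO2, ZC3H10 and ENSG00000284292 share exons with other genes of the table, which makes their counts uncertain.

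The receptors were not called in any comparison, although their levels were mostly higher after knockdown. By edgeR 0 of 4 receptors passed with HMOX1si1, against 10.0% of all genes, with 3 at an unadjusted p under 0.05 and 3 called by DESeq2. With HMOX1si2, on average and between the siRNAs it also called 0 of 4, against 5.73%, 10.1% and 3.62% of all genes. The numbers at an unadjusted p under 0.05 were 1, 3 and 2, and DESeq2 called 0, 1 and 0. All 4 knockdown libraries lay above both controls for 3 of the 4 receptors, against 18.7% of all genes tested (18.2% lay below). With HMOX1si1 3 of the 4 lay above both controls and with HMOX1si2 4 of 4, against 31.9% and 28.9% of all genes, while 31.9% and 28.1% lay below. The median log2 fold change of the 4 was 0.45 on average, beside −0.004 for all genes.

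FGFR1 (ENSG00000077782, chromosome 8, 38400215 to 38468834, minus strand), the most abundant receptor, had 60.4 and 73.4 CPM in siControl, 91.5 and 119.7 with HMOX1si1 and 95.4 and 78.4 with HMOX1si2. Both siRNA groups lay above the controls and overlapped each other. On the log2 scale the change was 0.66 with HMOX1si1 (SE 0.18, edgeR adjusted p = 0.0696) and 0.38 with HMOX1si2 (SE 0.18, edgeR adjusted p = 0.241), and the DESeq2 adjusted p with HMOX1si1 was 0.0107. The FGFR1 value with HMOX1si2 was 0.24 without siControl replicate 1 and 0.23 without HMOX1si2 replicate 1. The difference between siRNAs was −0.28 (95% interval −0.72 to 0.15). FGFR1 shares 138 exonic bases with LETM2, which had 3.04 to 5.80 CPM.

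FGFR4 (ENSG00000160867, chromosome 5, 177086886 to 177098144, plus strand), the receptor used by FGF19, had 10.999 and 12.978 CPM in siControl, 18.03 and 16.7 with HMOX1si1 and 13.4 and 16.0 with HMOX1si2. Again all knockdown libraries were higher than the controls. On the log2 scale the change was 0.53 with HMOX1si1 (SE 0.15, edgeR adjusted p = 0.0768, DESeq2 adjusted p = 0.0275) and 0.30 with HMOX1si2 (SE 0.15, edgeR adjusted p = 0.269). The latter value for FGFR4 was 0.18 without siControl replicate 1 and 0.16 without HMOX1si2 replicate 2.

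FGFR3 (ENSG00000068078, chromosome 4, 1793293 to 1808872, plus strand) had 3.62 and 4.62 CPM in siControl, 6.37 and 7.30 with HMOX1si1 and 4.86 and 4.80 with HMOX1si2. HMOX1si1 stood highest, and HMOX1si2 just above the controls. On the log2 scale the change was 0.73 with HMOX1si1 (SE 0.17, edgeR adjusted p = 0.0526), a value that passed with library totals as the scaling (0.0488) and with DESeq2 (adjusted p = 0.0191), and 0.23 with HMOX1si2 (SE 0.17, edgeR adjusted p = 0.444). The FGFR3 value with HMOX1si2 was 0.058 without siControl replicate 1 and 0.42 without siControl replicate 2.

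FGFR2 (ENSG00000066468, chromosome 10, 121478334 to 121598458, minus strand) had 5.14 and 3.92 CPM in siControl, 3.63 and 4.83 with HMOX1si1 and 6.87 and 6.61 with HMOX1si2. It was the only receptor whose HMOX1si1 libraries overlapped the controls and whose HMOX1si2 libraries were above all others. On the log2 scale the change was −0.10 with HMOX1si1 (95% interval −0.61 to 0.41, edgeR adjusted p = 0.777) and 0.57 with HMOX1si2 (SE 0.21, edgeR adjusted p = 0.155). Without siControl replicate 1 or HMOX1si1 replicate 1 the first value turned to 0.10 and 0.09. Epithelial and mesenchymal splice forms of the receptors bind different ligands, and gene counts do not separate them.

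**Figure D2:**
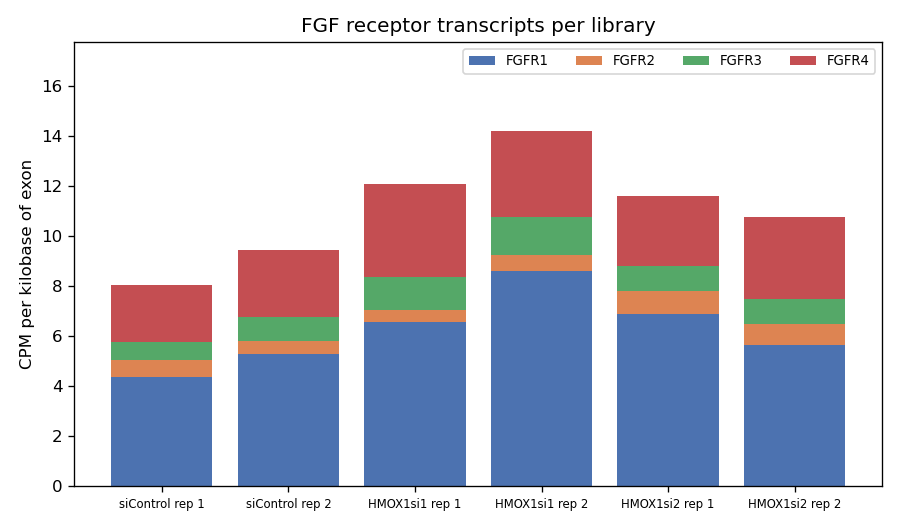
Stacked CPM per kilobase of exon (y axis) of FGFR1, FGFR2, FGFR3 and FGFR4 in each of the 6 libraries. The sum is 8.07 and 9.46 in siControl and 10.8 to 14.2 in the knockdown libraries, with FGFR1 and FGFR4 the largest parts throughout.

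The make-up of the receptor pool was described by shares. FGFR1 supplied 55.1% of the summed CPM per kilobase in siControl (SD 1.4, n = 2), 57.6% with HMOX1si1 (SD 4.4) and 55.9% with HMOX1si2 (SD 5.2). The shares of FGFR1 overlapped between all groups. FGFR4 supplied 28.3%, 27.5% and 27.3%. FGFR2 supplied 8.41% and 5.47% in siControl, 3.94% and 4.47% with HMOX1si1 and 7.83% and 8.04% with HMOX1si2. No test was run on these shares. FGFRL1, a receptor-like protein without a kinase domain, rose with HMOX1si1, from 58.5 and 65.7 CPM to 90.9 and 106.6 (a change of 0.67 on the log2 scale, SE 0.15, edgeR adjusted p = 0.0420). With HMOX1si2 it was at 74.4 and 60.3 CPM (0.12, SE 0.14, edgeR adjusted p = 0.643). Its call ended without either control library and without either HMOX1si1 library. Without siControl replicate 2 no gene kept a call with HMOX1si1. Without either control library none did with HMOX1si2 or on average. A call lost in those fits is thus not particular to a gene, here and in what follows.

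The Klotho co-receptors of the hormone-like FGFs were close to absent. KLB had 6 to 12 counts per library, and KL, the other Klotho gene, had 0 in all 6 libraries. CDH2, N-cadherin, which was listed with them but is not a Klotho gene, was also at 0 in all 6. Both zeros hold within the limit of 3 counts given above. NCAM1, an adhesion molecule that can bind FGF receptors, was at 0.334 to 0.991 CPM (−0.30 on average on the log2 scale, SE 0.35, edgeR adjusted p = 0.598). Of the 5 genes listed beside the 4 signalling receptors 2 could be tested, and FGFRL1 was the 1 called, with HMOX1si1, where 10.0% of all genes were called.

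FGF19 (ENSG00000162344, chromosome 11, 69698232 to 69704642, minus strand) moved in opposite directions from control with the 2 siRNAs, and only the lower level with HMOX1si1 passed the test. It had 649.2 and 694.4 CPM in siControl, 424.7 and 446.8 with HMOX1si1 and 806.2 and 749.1 with HMOX1si2. The 3 groups did not overlap. Both libraries lay below the controls for 31.9% of all tested genes with HMOX1si1 and above them for 28.9% with HMOX1si2. With HMOX1si1 FGF19 fell to 64.9% of control (a change of −0.62 on the log2 scale, SE 0.09, edgeR adjusted p = 0.0176), and with HMOX1si2 it was at 116% (0.21, SE 0.09, edgeR adjusted p = 0.214). FGF19 was 1.78-fold higher with HMOX1si2 than with HMOX1si1 (log2 difference 0.84, SE 0.09, edgeR adjusted p = 0.0142). The first call ended without siControl replicate 1 (edgeR adjusted p = 0.0582), siControl replicate 2 (0.0998), HMOX1si1 replicate 1 (0.107) and HMOX1si1 replicate 2 (0.112). The difference between siRNAs lost its call without HMOX1si1 replicate 1 (edgeR adjusted p = 0.1055), HMOX1si1 replicate 2 (0.0962) and HMOX1si2 replicate 1 (0.0523). The summed ductal markers given above were also lowest with HMOX1si1. With HMOX1si2 they lay within the control range, whereas FGF19 lay above it. A link between the markers and FGF19 was not tested.

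FGF19 lies between CCND1, the cyclin D1 gene, and the other FGF genes FGF4 and FGF3 on chromosome 11, a region often amplified in carcinomas. CCND1, 43.8 kb away, had 469.0 and 436.4 CPM in siControl, 454.7 and 427.8 with HMOX1si1 and 304.3 and 317.1 with HMOX1si2. It passed the test with HMOX1si2 (a change of −0.54 on the log2 scale, SE 0.09, edgeR adjusted p = 0.0342), where FGF19 was highest, and its call ended without any 1 of the 6 libraries (edgeR adjusted p 0.0690 to 0.137). LTO1, 22.8 kb away, had 9.23 to 17.4 CPM (−0.38 on average on the log2 scale, SE 0.25, edgeR adjusted p = 0.344) and shares 497 exonic bases with CCND1. FGF3, a ligand gene expressed in embryos, had 1.96 and 2.32 CPM in siControl, 1.24 and 1.33 with HMOX1si1 and 1.45 and 2.28 with HMOX1si2. Like FGF19, FGF3 was lowest with HMOX1si1, with changes that did not pass: −0.74 with HMOX1si1 (SE 0.28, edgeR adjusted p = 0.139), −0.20 with HMOX1si2 (0.678) and 0.54 between the siRNAs (0.347). FGF4 had a count in a single library.

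FGF2 (ENSG00000138685, chromosome 4, 122826708 to 122898236, plus strand), basic FGF, was lower in all 4 knockdown libraries, mainly with HMOX1si2. All 4 lay below both controls, as they did for 18.2% of all tested genes. It had 21.7 and 17.2 CPM in siControl, 16.9 and 16.1 with HMOX1si1 and 10.6 and 10.8 with HMOX1si2. The HMOX1si1 libraries lay just below the lower control and the HMOX1si2 libraries far below. FGF2 fell to 55.1% of control with HMOX1si2 (a change of −0.86 on the log2 scale, SE 0.15, edgeR adjusted p = 0.0353), and it fell on average (−0.55, SE 0.12, edgeR adjusted p = 0.0467). With HMOX1si1 the value was −0.24 (95% interval −0.59 to 0.12, edgeR adjusted p = 0.316), and the difference between siRNAs was −0.62 (SE 0.15, edgeR adjusted p = 0.0802, DESeq2 adjusted p = 0.00968). Both calls of FGF2 ended without any 1 of the 6 libraries, with edgeR adjusted p between 0.0687 and 0.1228 for HMOX1si2 and between 0.0615 and 0.170 on average. The call on average also ended with library totals as the scaling (edgeR adjusted p = 0.0618). The FGF2 fold change on average was −0.37 without siControl replicate 1 and −0.71 without siControl replicate 2. FGF2 shares 804 exonic bases with the antisense gene NUDT6, which had 2.40 to 4.73 CPM, and the use of strand in counting is not given in the sources used here.

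**Figure D3:**
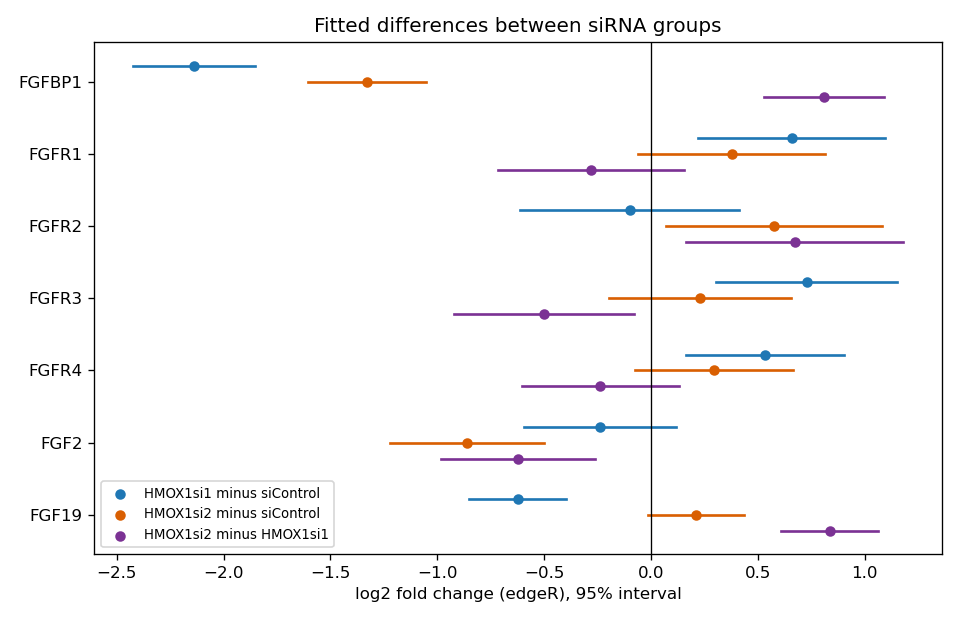
Fitted log2 fold change (x axis) with its 95% interval for the 7 genes in 3 comparisons of siRNA groups. FGFBP1 was chosen for its lower level against control, so its values and intervals against siControl are a description and no test. FGF19 is below 0 with HMOX1si1 only, and FGF2 is lowest with HMOX1si2. Comparisons against siControl share the same 2 control libraries.

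Of the 6 members other than FGFBP1, edgeR called 1 with HMOX1si1 (FGF19), 1 with HMOX1si2 (FGF2) and 1 on average (FGF2), all lower. Of all genes 5.01%, 2.67% and 4.93% were called lower and 5.02%, 3.06% and 5.16% higher.

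Few other FGF ligands were expressed. Of 22 ligand genes 7 passed the filter, FGF2 and FGF19 among them. Of the other 15, 6 were at 0 in all libraries and the highest count of any was 7. FGF18, a ligand of the FGF8 family, fell with HMOX1si1, from 5.08 and 5.43 CPM to 1.502 and 1.726, and was at 4.66 and 3.65 with HMOX1si2. Its log2 fold change was −1.70 with HMOX1si1 (SE 0.20, edgeR adjusted p = 0.0100), −0.34 with HMOX1si2 (SE 0.18, edgeR adjusted p = 0.291) and −1.02 on average (SE 0.16, edgeR adjusted p = 0.0218), and the difference between siRNAs was 1.36 (SE 0.20, edgeR adjusted p = 0.0233). Like FGF19, FGF18 was thus lowest with HMOX1si1. The call with HMOX1si1 ended without siControl replicate 1 (edgeR adjusted p = 0.0548), siControl replicate 2 (0.0753), HMOX1si1 replicate 1 (0.0594) and HMOX1si1 replicate 2 (0.0574), and those on average and for the difference ended without 4 and 5 of the 6 libraries.

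FGF11, which codes for an intracellular FGF homologue that is not secreted, rose with HMOX1si2, from 6.33 and 8.45 CPM to 14.3 and 13.1 (a change of 0.89 on the log2 scale, SE 0.17, edgeR adjusted p = 0.0436, and 0.0752 to 0.1515 without any 1 library). It was at 8.92 and 9.70 CPM with HMOX1si1. FGF14 had 0.100 to 1.29 CPM and shares exons with ITGBL1, and FGF22 had 0.138 to 0.354 CPM. Neither was called (edgeR adjusted p = 0.792 and 0.951 on average).

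Heparan sulfate carriers and the enzymes that trim the chains held calls in both directions. Of 8 tested core proteins 1 fell with HMOX1si1 and 0 were called with HMOX1si2 (edgeR; 2 of the 8 had an unadjusted p under 0.05 and DESeq2 called 2), beside medians of −0.10 and −0.01 on the log2 scale and background shares of 10.0% and 5.73%. GPC1, glypican-1, a cell-surface proteoglycan that acts as a co-receptor for FGF2, was the member that fell. It had 136.4 and 150.2 CPM in siControl, 75.7 and 69.1 with HMOX1si1 and 152.3 and 144.0 with HMOX1si2. On the log2 scale the change was −0.99 with HMOX1si1 (SE 0.10, edgeR adjusted p = 0.00806) and 0.05 with HMOX1si2 (95% interval −0.20 to 0.29, edgeR adjusted p = 0.798), and the difference was 1.03 (SE 0.10, edgeR adjusted p = 0.0114). The first call ended without siControl replicate 2 (edgeR adjusted p = 0.0695) and HMOX1si1 replicate 2 (0.0697), and the difference lost its call without HMOX1si1 replicate 1 (0.0707) and HMOX1si1 replicate 2 (0.0908). HSPG2, perlecan, the core protein with the highest CPM, was not called (−0.31 on average on the log2 scale, SE 0.11, edgeR adjusted p = 0.117), nor were AGRN, agrin (0.20, edgeR adjusted p = 0.144) and SDC3, syndecan-3 (−0.15, edgeR adjusted p = 0.341).

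Of 16 tested heparan sulfate enzymes, 2 were called with each siRNA (12.5%) and 3 on average (18.8%, 2 higher and 1 lower), beside 10.0%, 5.73% and 10.1% of all genes. HPSE, heparanase, which cleaves the chains and frees bound growth factors, had 36.9 and 36.6 CPM in siControl, 20.3 and 17.0 with HMOX1si1 and 13.9 and 13.4 with HMOX1si2. It fell with each siRNA (log2 fold change −0.98 and −1.43, SE 0.12 each, edgeR adjusted p = 0.0117 and 0.0123). The HPSE groups did not overlap, and 18.2% of all tested genes had all knockdown libraries below both controls. SULF2, a sulfatase that removes 6-O-sulfate from the chains, rose from 1067 and 1000 CPM to 1946 and 2308 with HMOX1si1 (1.04, SE 0.16, edgeR adjusted p = 0.0186). It was at 1786 and 1353 with HMOX1si2 (0.60, SE 0.16, edgeR adjusted p = 0.0830). XYLT2, a xylosyltransferase that starts the chains, rose with HMOX1si2 (0.62, SE 0.12, edgeR adjusted p = 0.0410), and HS3ST1, a 3-O-sulfotransferase, was lower with HMOX1si2 than with HMOX1si1 (−0.69, SE 0.11, edgeR adjusted p = 0.0351). HPSE with HMOX1si1 lost its call without siControl replicate 1 (edgeR adjusted p = 0.0621), siControl replicate 2 (0.0850) and HMOX1si1 replicate 2 (0.0775), and with HMOX1si2 without siControl replicate 1 (0.0810), siControl replicate 2 (0.109) and HMOX1si2 replicate 1 (0.0517). The HPSE call on average (edgeR adjusted p = 0.00757) ended without siControl replicate 1 (0.0651) and siControl replicate 2 (0.0955), and that of SULF2 with HMOX1si1 ended without either control library (0.0778 and 0.121) and without HMOX1si1 replicates 1 and 2 (0.0594 and 0.100). XYLT2 with HMOX1si2 and HS3ST1 between the siRNAs lost their calls without any 1 library (edgeR adjusted p 0.0576 to 0.180 and 0.0693 to 0.188).

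Inside the cell, most genes that carry the FGF signal were not called. Of 25 tested signalling genes 2 (8.0%) rose with HMOX1si1, against 10.0% of all genes called and 5.02% higher. These were BRAF, a RAF kinase (a change of 0.80 on the log2 scale, SE 0.13, edgeR adjusted p = 0.0214), and STAT3, a transcription factor (0.66, SE 0.09, edgeR adjusted p = 0.0135). BRAF shares 1239 exonic bases with the gene NDUFB2, which makes its counts uncertain. With HMOX1si2 edgeR called 0 of 25, against 5.73% of all genes, with 5 at an unadjusted p under 0.05 and 2 called by DESeq2. The adaptor FRS2 had 20.3 and 7.39 CPM in the 2 control libraries and 18.8 to 26.8 after knockdown, and it was not called (0.67 on average on the log2 scale, SE 0.38, edgeR adjusted p = 0.276). Of 11 tested feedback inhibitors 1 (9.09%) rose with each siRNA, near the 10.0% of all genes called with HMOX1si1 and beside 5.73% with HMOX1si2. That gene was IL17RD, which encodes the SEF inhibitor of FGF signalling, with 4.20 and 4.19 CPM in siControl, 6.77 and 7.05 with HMOX1si1 and 8.21 and 7.94 with HMOX1si2. Its log2 fold change was 0.72 and 0.94 (SE 0.13 each, edgeR adjusted p = 0.0267 and 0.0229). Its groups did not overlap, and 18.7% of all tested genes had all knockdown libraries above both controls. DUSP6, an ERK phosphatase induced by FGF signalling, had 275.4 and 392.1 CPM in siControl, 213.6 and 360.2 with HMOX1si1 and 309.7 and 183.8 with HMOX1si2, and was not called (−0.33 on average, SE 0.30, edgeR adjusted p = 0.488). SPRY1 (−0.31), SPRY2 (0.13) and SPRY4 (−0.02) were not called on average either (edgeR adjusted p = 0.390, 0.289 and 0.943). BRAF, STAT3 and IL17RD with HMOX1si1 lost their calls without either control library or either HMOX1si1 library (edgeR adjusted p up to 0.121, 0.100 and 0.148), and IL17RD with HMOX1si2 without any 1 library (0.0517 to 0.134).

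Among transcripts that ERK activity induces, all those called against control but CCND1 were higher. Of 14 tested, 4 rose with HMOX1si1 and on average (FOSL1, JUN, EGR1 and PHLDA1), and 2 rose and 1 fell with HMOX1si2. The share called, 28.6% with HMOX1si1 and 21.4% with HMOX1si2, stands beside 10.0% and 5.73% of all genes and is not a test of the list. EGR1 and PHLDA1 with HMOX1si1 lost their calls without either control library or either HMOX1si1 library (edgeR adjusted p up to 0.144 and 0.0870). FOSL1, an AP-1 subunit, had 73.1 and 64.5 CPM in siControl, 198.7 and 257.0 with HMOX1si1 and 157.4 and 140.5 with HMOX1si2. ETV4 and ETV5, which FGF signalling induces in many tissues, were not called (log2 fold change on average 0.34 and 0.07, edgeR adjusted p = 0.105 and 0.565). Without siControl replicate 2 edgeR called 0 genes with HMOX1si1, and without either control library 0 with HMOX1si2 and on average, with 2806, 2409 to 2968 and 2562 to 3459 genes below 0.05 before adjustment, and DESeq2 was not run on these subsets. Over the 110 genes of all these lists, 82 were tested and 12 were called with HMOX1si1 (9 higher, 3 lower) and 7 with HMOX1si2 (5 higher, 2 lower), which is 14.6% and 8.54%, beside 10.0% and 5.73% of all genes.

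**Figure D4:**
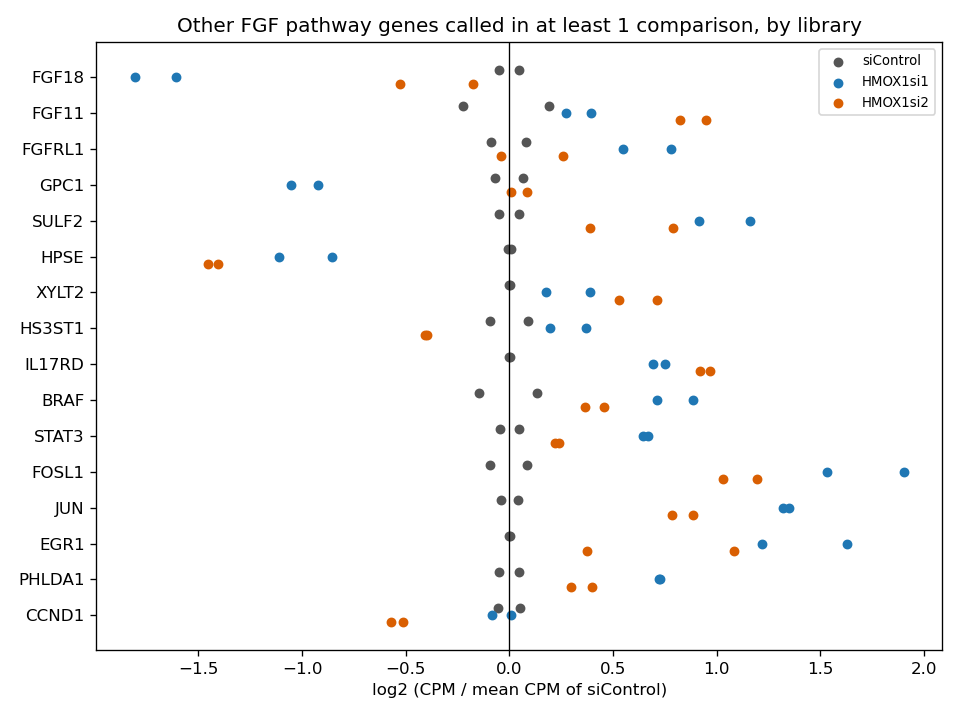
Level of each library relative to the siControl mean (x axis, log2 ratio of CPM) for the 16 other FGF pathway genes called in at least 1 comparison; points are single libraries coloured by siRNA. FGF18 is far below the controls with HMOX1si1 and slightly below them with HMOX1si2, GPC1 is below them with HMOX1si1 and overlaps them with HMOX1si2, HPSE is low with both siRNAs, and IL17RD, FOSL1 and JUN are high with both.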

How the data were processed

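RNA of 6 AsPC-1 libraries was sequenced with an mRNA library kit, per the labels' protocols. The authors deposited 1 table of whole numbers, taken here as estimated counts per gene. This unit is inferred from the values, and the aligner, counter and strand setting are not stated in the labels. Even numbers make up 71.9% of the values between 1 and 10 but 49.9% of those above 100, so how reads were counted is not settled. Builds named in the submitters' processing notes are GRCm38 and mm10, both of mouse, while the identifiers are human. Of 20263 genes, 20148 matched a symbol and 20224 GENCODE 29. The columns named siNC were taken as siControl.

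Counts were already whole, so rounding changed nothing. Genes were kept by filterByExpr (13769), TMM-scaled and modelled with a mean for each group, using every library (R 4.3.3, edgeR 4.0.16, glmQLFit and glmQLFTest; DESeq2 1.42.0 as an alternative). P-values are two-sided and were adjusted by Benjamini-Hochberg over all tested genes, and a call is an adjusted p below 0.05. The SE is the absolute log2 fold change over the square root of F. The log2 CPM used a prior count of 2. The fit was also run on counts simulated from its own estimates of spread. The outcome is not given here, and such a run does not check how well the model describes these libraries. The members, lists and tests were chosen with earlier results of these data known. Named genes were the members, HMOX1, each list gene called on average or with both siRNAs and otherwise up to 4 per list with the smallest p on average, the 8 genes most like FGFBP1 and the 2 nearest coding genes on each side of FGFBP1 and FGF19. Other list genes were named after their values were seen. Alternatives were other scalings, no filter, DESeq2, a block, fits of the compared groups alone and leaving out each library.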

Additional observations from a re-analysis of the deposited data

Results flagged for a closer look

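For 7 of the genes described, the 2 siRNAs differed from each other by the test of that difference (HMOX1si2 minus HMOX1si1 on the log2 scale, edgeR adjusted p below 0.05). FGFBP1 (0.81), FGF19 (0.84), FGF18 (1.36) and GPC1 (1.03) were higher with HMOX1si2, with edgeR adjusted p of 0.0229, 0.0142, 0.0233 and 0.0114. HS3ST1 (−0.69), JUN (−0.50) and CCND1 (−0.51) were lower with HMOX1si2, with edgeR adjusted p of 0.0351, 0.0465 and 0.0440. With any 1 of the 6 libraries left out, the differences lay between 0.76 and 0.87 for FGFBP1 and 0.78 and 0.88 for FGF19. They lay between 1.2 and 1.5 for FGF18, 0.97 and 1.10 for GPC1, and −0.77 and −0.6 for HS3ST1. For JUN they lay between −0.55 and −0.45, and for CCND1 between −0.55 and −0.46. FGFBP1, HS3ST1, JUN and CCND1 lost their call without any 1 of the 6 libraries. FGF18 lost it without 5 of the 6, FGF19 without 3 and GPC1 without 2. JUN also lost its call with no filter on low counts (edgeR adjusted p = 0.0529) and CCND1 with library totals as the scaling (edgeR adjusted p = 0.0663).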

How the results depend on the processing

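Libraries with the same replicate number did not deviate together (correlations of 0.01, 0.03 and −0.15 between groups), so the numbers were not taken as a pairing. With the replicate number as a block, edgeR called 481 genes with HMOX1si1, 45 with HMOX1si2, 255 on average and 87 between the siRNAs, against 1381, 789, 1389 and 499 without it. Under the block the FGFBP1 difference between siRNAs was 0.81 (edgeR adjusted p = 0.0634), and FGF19 with HMOX1si1 (0.0549), FGF19 between siRNAs (0.0554) FGF2 with HMOX1si2 (0.0787) and FGF2 on average (0.0872) also missed the threshold. DESeq2 called 2639, 1890, 2636 and 1411 genes in the same order. Among them were FGFBP1 between siRNAs (DESeq2 adjusted p = 5.99e-06) and FGF19 with HMOX1si1 (9.66e-07) and between siRNAs (1.24e-11). FGF2 was called by DESeq2 with HMOX1si2 (adjusted p = 7.99e-05) and on average (0.00517). Fits of the compared groups alone called 1529 genes with HMOX1si1, 179 with HMOX1si2 and 156 between siRNAs. In these fits the FGFBP1 difference between siRNAs was 0.82 (edgeR adjusted p = 0.0663), and FGF2 with HMOX1si2 was at an edgeR adjusted p of 0.0674. Leaving out 1 library gave 0 to 1492 calls with HMOX1si1, 0 to 362 with HMOX1si2, 0 to 1594 on average and 19 to 204 between siRNAs. FGFBP1 stayed between −2.21 and −2.06 with HMOX1si1, −1.41 and −1.25 with HMOX1si2, −1.81 and −1.65 on average, and 0.76 and 0.87 between siRNAs. FGFR2 with HMOX1si1 changed sign without siControl replicate 1 (0.10) and without HMOX1si1 replicate 1 (0.09), within a range of −0.32 to 0.10. The cause of these shifts was not tested. With 2 libraries a group, the number of libraries limits the precision of each call.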

Other observations

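Transcription factors known to act on the FGFBP1 promoter or listed with them (the AP-1 and C/EBP families, SP1, KLF5, USF1 and p53) were measured as a separate list of 14, all tested. With HMOX1si1 4 rose (FOSL1, JUN, FOSB and CEBPD), with HMOX1si2 2 rose and 1 fell, and on average 4 rose and 1 fell. These are 28.6%, 21.4% and 35.7%, beside 10.0%, 5.73% and 10.1% of all genes. JUN had 26.6 and 28.2 CPM in siControl, 68.4 and 69.6 with HMOX1si1 and 50.6 and 47.1 with HMOX1si2. FOSB, an AP-1 subunit, rose by 1.43 on average on the log2 scale (SE 0.22, edgeR adjusted p = 0.0218), CEBPD by 0.54 (edgeR adjusted p = 0.0487), while CEBPA, a factor of epithelial and myeloid differentiation, fell by 0.59 (edgeR adjusted p = 0.0250). KLF5, an epithelial factor, was not called (0.47, edgeR adjusted p = 0.114). The calls on average of FOSL1, JUN, FOSB, CEBPD and CEBPA each ended without either control library, as did those of all other genes. That of CEBPD ended without any 1 of the 6 libraries, and that of CEBPA without 5 of the 6. With 1 library left out the values on average lay between 0.37 and 0.72 for CEBPD and −0.68 and −0.50 for CEBPA. The CEBPD call on average also ended with DESeq2 size factors as the scaling (edgeR adjusted p = 0.0502). FOSL2 had 104.3 and 32.96 CPM in the 2 control libraries and 38.7 to 116.2 after knockdown. FOSL1 and JUN are also in the list of ERK-induced transcripts. A link from these factors to FGFBP1 was not tested.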
